A study of Glycine max with 30 samples.

Results

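The growth of 3MWT soybean seeds from stage 2 to stage 3 was followed by RNA-seq of 6 libraries, out of 30 libraries in the series. All 3 libraries of each of these stages of the line were taken, so the comparison is of 3 against 3. 3MWT is an inbred soybean line from the cross of V99-5089 with CX-1834 that is homozygous for the non-mutant alleles of MIPS1, MRP-L and MRP-N and makes normal amounts of phytic acid. Its counterpart from the same cross, 3mlpa, is homozygous for mips1, mrp-l and mrp-n and is used here only to ask whether the step differs between lines. Stages were set by seed length. Stage 2 seeds measured 4 to 6 mm, and those of stage 3 measured 6 to 8 mm. Plants of both lines shared a growth chamber. Each replicate was a pool of whole seeds from different pods on separate plants, with more seeds per pool at stage 2 than at stage 3. RNA therefore came from cotyledon, endosperm and seed coat together, and more cells of a kind cannot be told apart from more RNA per cell.

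A soybean seed grows first by cell division and then by cell expansion, when the cotyledons fill with storage protein and oil. Storage proteins are made on the endoplasmic reticulum and packed into vacuoles, where protease inhibitors accumulate beside them. The seed is green while it fills, and its chloroplasts capture light and supply oxygen and reducing power. Histones are made mainly while DNA is replicated, so their transcripts are abundant in dividing cells. Genes are called below by their identifiers, since these files pair no names with them. What a gene is said to do comes from the lists of the study or from the gene ontology (GO) terms in its deposited output. These sources hold genes that the study had picked for a difference between lines, partly on these libraries. The exceptions are MRP-L, MRP-N, the reference gene of its PCR and its genes for raffinose family oligosaccharides. Among the last of these, the galactinol synthase gene measured by PCR was chosen for its fold change between lines. The picked genes are thus not complete gene families and not independent evidence of a direction.

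The gene counts of a library summed to 17588181 to 29476755 at stage 2 and to 18498440 to 22810916 at stage 3. The libraries of stage 2 were not alike. Replicate 1 correlated most with stage 2 replicate 2 (Pearson's r = 0.9845 across genes, on a log scale). It correlated slightly more with stage 3 replicate 1 (0.9802) than with stage 2 replicate 3 (0.9796). All libraries of a stage, of both lines, shared a sequencing lane, so stage and lane cannot be told apart. Alignments to several places in the genome, which were not counted on genes, numbered 0.930 to 1.72 for each counted read at stage 2 and 0.526 to 0.792 at stage 3. In 3mlpa the same ratio was 0.175 to 0.196 at stage 2 and 0.197 to 0.272 at stage 3. The part of these alignments in the results was not tested. Counts of genes that have near-identical copies are uncertain, since reads that align to several copies were not counted.

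Of 54175 genes, 40917 had at least 10 counts over the 6 libraries and were tested with edgeR's quasi-likelihood test. At 1 % FDR, 2895 DEGs were found (7.08 % of the genes tested), of which 1864 were up-regulated at stage 3 (4.56 %) and 1031 were down-regulated (2.52 %). The DESeq2 Wald test called 8.09 % as rising and 4.90 % as falling. Of 2644 genes annotated in the sources above, 333 rose and 84 fell by the quasi-likelihood test. Rises were thus more frequent among annotated genes, from which the lists below are drawn, than over all genes. Lists for translation, lipid metabolism and proteolysis had rising shares near that of the annotated genes. The change was at least 2-fold for 746 of the up-regulated and 381 of the down-regulated genes. The median log2 fold change of all genes tested was -0.03. Values of the 2 stages did not overlap in any of the 2895 DEGs, and neither did they in 21.4 % of all genes tested with stage 3 higher and 21.1 % with stage 3 lower. The number of DEGs rested on single libraries. Without stage 2 replicate 2 or without stage 3 replicate 2, 0 genes were called by the quasi-likelihood test, while 11595 and 13708 genes had an unadjusted p under 0.05 and the DESeq2 Wald test called 2532 and 4175. Without stage 2 replicate 3, stage 3 replicate 1 or stage 3 replicate 3, the quasi-likelihood test called 540, 922 and 645 genes, and the count of calls in each list below was 0 without either replicate 2. When libraries were scaled by their totals alone, the median log2 fold change of all genes was -0.41, and 798 genes rose and 7834 fell. Changes below are relative to the median gene.

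Seed storage genes had the highest median change of the lists examined. Among 14 genes annotated with nutrient reservoir activity, the GO term given to seed storage proteins, the log2 fold change was positive in 14 and its median was 3.50. At 1 % FDR 5 of them rose and 0 fell, and 9 were not called. Together they took 0.279 to 1.98 % of all gene counts at stage 2 and 5.16 to 9.69 % at stage 3. The most abundant of them, Glyma10g39150, had 201452, 50658 and 33201 normalized counts in replicates 1 to 3 of stage 2, and 500827, 670124 and 909822 at stage 3. Every stage 3 library lay above every stage 2 library, and within stage 2 replicate 1 stood far above the others. Its log2 fold change was 2.87 ± 0.64 (SE, n = 3 and 3) with an adjusted p of 0.0143 in edgeR's quasi-likelihood test, so it was not called.

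The 5 storage-annotated genes that rose did so by 1.63 to 4.02 on the log2 scale. Glyma02g16440 had 2517, 584 and 362.5 normalized counts at stage 2 and 10572, 21331 and 23849 at stage 3. This was the strongest rise of the called members, at 4.02 ± 0.68 (SE) on the log2 scale and an adjusted p of 0.00579 (edgeR). Glyma11g15870 rose by 3.62 ± 0.67 (SE) and Glyma01g38340 by 3.38 ± 0.65 (SE). Glyma10g03390 is among the most abundant genes of these seeds and held 50857, 18866 and 12751 normalized counts at stage 2 against 136785, 186578 and 229568 at stage 3, a rise of 2.75 ± 0.49 (SE) on the log2 scale (adjusted p = 0.0065, edgeR). Glyma03g38630 differed from these in its evenness, with 144, 122 and 96.5 normalized counts at stage 2 and 302.4, 321 and 491.7 at stage 3 (log2 fold change 1.63 ± 0.21, SE).

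**Figure D1:**
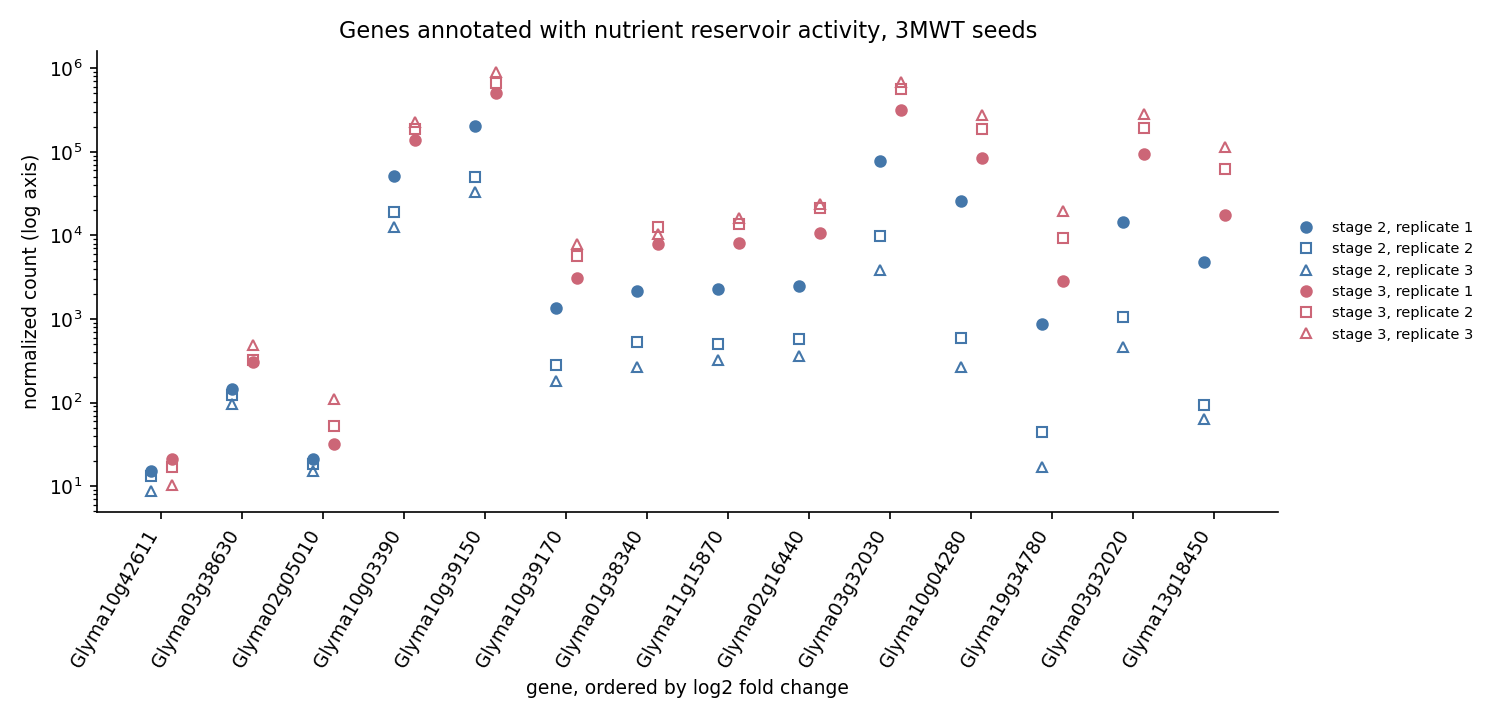
Normalized counts (log axis) of the 14 genes annotated with nutrient reservoir activity in each 3MWT library, blue for stage 2 and red for stage 3, with a symbol per replicate and genes ordered by log2 fold change. Filled blue circles, stage 2 replicate 1, are the highest of stage 2 in all 14 genes.

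The steepest members missed the threshold, in each case with a wide spread at stage 2. Glyma13g18450 had 4805, 94.3 and 64.3 normalized counts at stage 2 against 17529, 62734 and 115817 at stage 3, a log2 fold change of 5.31 ± 1.54 (SE; adjusted p = 0.0372, edgeR). Glyma03g32020 followed with 14332, 1068 and 464 against 94534, 192460 and 286152 (5.18 ± 1.20, SE). Glyma19g34780 had 879.7, 45.1 and 17 against 2839, 9257 and 19858 (5.12 ± 1.27, SE). In all of these genes stage 2 replicate 1 stood far above its partners, and stage 3 replicate 1 lay lowest of stage 3. The same order held across the list. Stage 2 replicate 1 was the highest of stage 2 in 14 of 14 members, by a median of 5.51-fold over the mean of the other libraries, and stage 3 replicate 1 was the lowest of stage 3 in 13 of 14. Over all genes tested, stage 2 replicate 1 was the highest of its stage in 38.2 %. Without that library, 12 of the 14 genes rose at 1 % FDR, and the DESeq2 Wald test on all libraries also called 12. Without stage 2 replicate 3, stage 3 replicate 1 or stage 3 replicate 3, 1 rose. A single member, Glyma10g42611, had overlapping stages, with 15.4, 13.3 and 8.8 normalized counts at stage 2 against 21, 17 and 10.3.

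Protease inhibitor genes rose as well. Of 12 tested genes with endopeptidase inhibitor activity, 6 rose and 0 fell, with a median log2 fold change of 1.92. Glyma08g45531 was among the most abundant transcripts, with 145623, 73645 and 55889 normalized counts at stage 2 and 288061, 370617 and 409396 at stage 3 (log2 fold change 1.96 ± 0.37, SE; adjusted p = 0.00795, edgeR). Glyma11g36780 rose most, from 626, 172 and 162 to 2106, 3136 and 3865 (3.27 ± 0.49, SE). Glyma16g33790 rose from 58.3, 22.6 and 18.3 to the nearly equal counts of 217, 208 and 209 (2.74 ± 0.34, SE). Glyma09g39630 rose from counts under 10 to a mean of 39.2 (2.66 ± 0.43, SE). In the opposite direction, Glyma16g33800 had 1058, 924 and 1069 normalized counts at stage 2 and 695, 497 and 325 at stage 3, which was not called (-1.01 ± 0.22, SE; adjusted p = 0.0123, edgeR). Stage 2 replicate 1 was the highest of stage 2 in 9 of the 12, and 9 rose without it. The count was 2 without stage 2 replicate 3, 3 without stage 3 replicate 1 and 1 without stage 3 replicate 3.

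**Figure D2:**
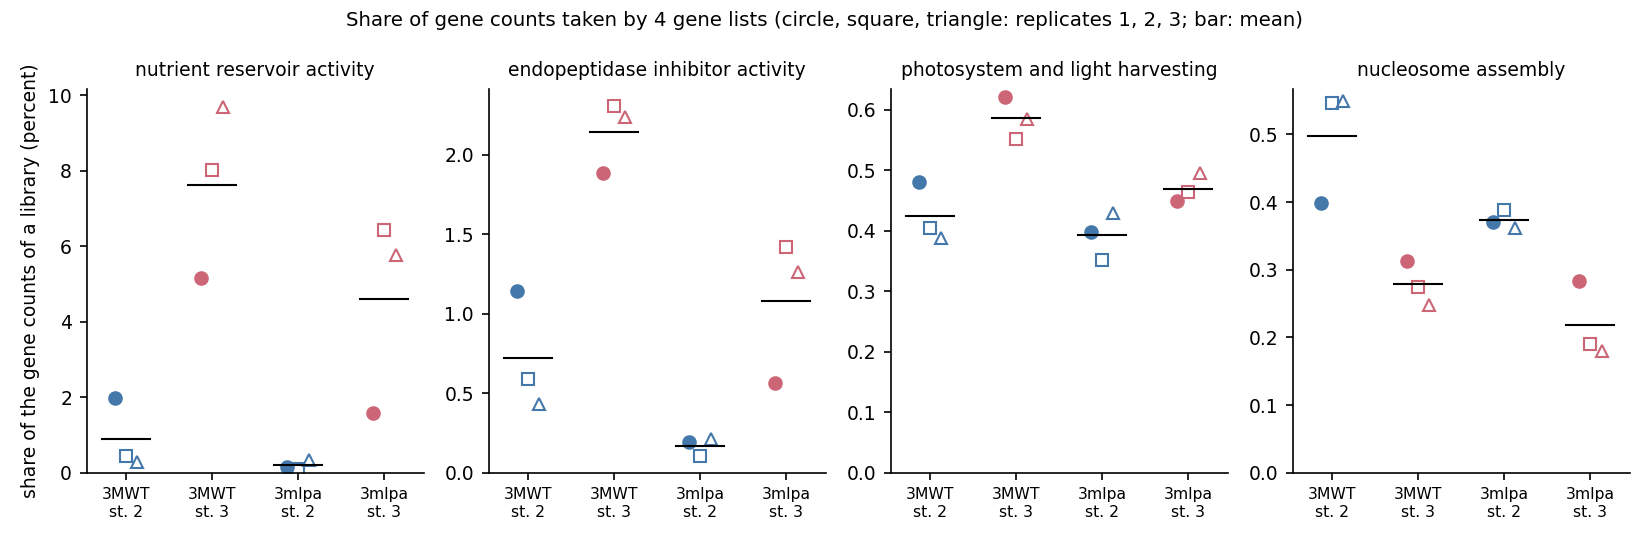
Share of all gene counts of a library (percent) taken by genes for nutrient reservoir activity, endopeptidase inhibitor activity, photosystems and light harvesting, and nucleosome assembly, for stages 2 and 3 of 3MWT and 3mlpa, with a symbol per replicate and a bar for the mean. In 3MWT the share of nutrient reservoir genes was 0.279 to 1.98 % at stage 2 and 5.16 to 9.69 % at stage 3.

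Proteolysis genes included enzymes as abundant as storage genes. Of 84 tested, 10 rose and 3 fell, with a median log2 fold change of 0.17. Glyma08g12270, annotated with cysteine-type peptidase activity, had 52724, 10730 and 3976 normalized counts at stage 2 and 210556, 351310 and 349463 at stage 3, a log2 fold change of 3.76 ± 0.82 (SE) that missed the threshold (adjusted p = 0.013, edgeR). Another cysteine-type peptidase gene, Glyma10g35100, rose by 1.38 ± 0.25 (SE), and the aspartic-type endopeptidase gene Glyma08g43330 rose from 125, 62 and 60 to 417, 270 and 379 (2.14 ± 0.28, SE). Glyma06g02500, annotated with serine-type endopeptidase activity, had overlapping stages despite 36746 to 111037 normalized counts (0.67 ± 0.34, SE).

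Genes of the photosynthetic apparatus rose together. Of 45 tested genes for photosystem subunits and light-harvesting chlorophyll proteins, with 1 gene of chlorophyll synthesis (CHLM) counted among them, 32 rose and 0 fell. Log2 fold changes were positive in 45 of 45, with a median of 0.82 and a range of 0.15 to 1.91. All 45 had been listed by the study for a difference between lines. Libraries of the stages did not overlap in 40 of them. Stage 2 replicate 1 was the highest of stage 2 in 41 of the 45, by a median of 1.30-fold, and 38 rose without it. The count was 6 without stage 2 replicate 3, and as many without stage 3 replicate 1 or stage 3 replicate 3. Scaled by library totals, the median log2 fold change of the list was 0.44, so the direction held there too.

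The rise was seen in each part of the apparatus. Light-harvesting complex II, which gathers light for photosystem II, had 9 of 10 genes up-regulated (median 0.89), and its LHCB1 members spanned the widest range. Glyma16g28030 (LHCB1) had 245, 158 and 137 normalized counts at stage 2 and 657, 536 and 812 at stage 3, a log2 fold change of 1.91 ± 0.22 (SE; adjusted p = 0.00331, edgeR). Glyma16g28070 (LHCB1) rose by 1.63 ± 0.26 (SE). Glyma05g25810 (LHCB1) was far more abundant, with 14541, 10834 and 10972 against 25352, 24354 and 22894, and rose by 1.00 ± 0.16 (SE). Light-harvesting complex I, which serves photosystem I, had 4 of 4 genes up-regulated (median 0.79). Photosystem I subunits rose in 10 of 13 genes (median 0.87). Both psaG genes, for a subunit that helps to hold the peripheral antenna in plants, were among them. Glyma06g48030 (psaG) had 686, 506 and 464 normalized counts at stage 2 and 1249, 1093 and 1492 at stage 3 (1.21 ± 0.16, SE), and Glyma04g12510 (psaG) changed by 1.17 ± 0.14 (SE).

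Photosystem II subunits, which include the water-splitting machinery, rose in 8 of 17 genes (median 0.76). Both PsbW genes were at the low end, with log2 fold changes of 0.15 ± 0.10 (Glyma03g31580) and 0.23 ± 0.12 (Glyma19g34410), and were not called. Genes for psbA and psbE, proteins that chloroplast genomes of land plants also encode, were not called either, with log2 fold changes of 0.58 ± 0.20 (Glyma13g15560, psbA) and 0.49 ± 0.40 and 0.89 ± 0.24 (Glyma15g38110 and Glyma12g36132, psbE). CHLM (Glyma08g01060), a methyltransferase of chlorophyll synthesis, rose by 0.82 ± 0.15 (SE; adjusted p = 0.0077, edgeR).

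**Figure D3:**
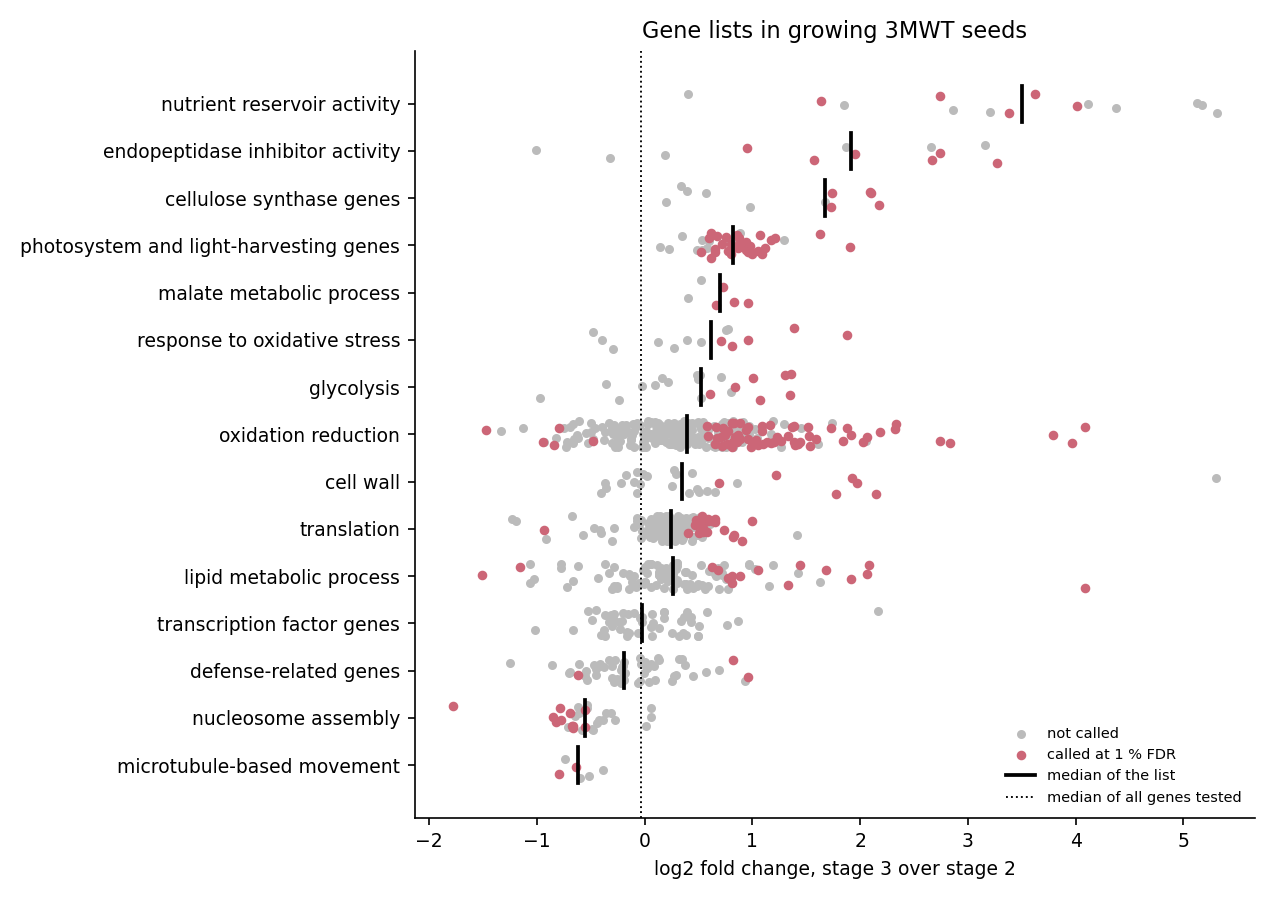
Log2 fold changes of stage 3 over stage 2 for the tested members of 15 gene lists, a point per gene, red where called at 1 % FDR, with a bar for the median of each list and a dotted line for the median of all genes tested (-0.03). Members of the nucleosome assembly list lie left of the line, apart from 3 near 0, and all 45 photosystem members lie right of it.

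Histone-type genes fell. Of 29 genes annotated with nucleosome assembly, the wrapping of DNA around histones, 11 fell and 0 rose, with a median log2 fold change of -0.56. Stages did not overlap in 26 of the 29. Glyma09g16392 had the steepest fall, from 162, 179 and 237 normalized counts at stage 2 to 80.2, 54 and 34.8 at stage 3 (-1.78 ± 0.26, SE; adjusted p = 0.00419, edgeR). The other members that fell did so by less. Glyma15g04805 had 4220, 5452 and 5588 at stage 2 and 3115, 3115 and 2600 at stage 3 (-0.79 ± 0.13, SE). Glyma08g24380 (-0.85 ± 0.16, SE) and Glyma12g07943 (-0.82 ± 0.14, SE) fell likewise. The remaining members near 0 stood apart from the list with log2 fold changes of 0.01 ± 0.10 (Glyma05g01120), 0.06 ± 0.14 (Glyma10g03840) and 0.06 ± 0.16 (Glyma02g15910). Stage 2 replicate 1 was the lowest of stage 2 in 29 of 29 members, and stage 3 replicate 3 was the lowest of stage 3 in 23. Without stage 2 replicate 1, 22 fell, and the DESeq2 Wald test on all libraries called 21. Without stage 3 replicate 1, 1 fell, and without stage 2 replicate 3 or stage 3 replicate 3, 0 fell by the quasi-likelihood test.

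Motor genes of the microtubule cytoskeleton went the same way. Of 6 genes for microtubule-based movement, 2 fell and 0 rose, and 6 had negative log2 fold changes (median -0.62). Glyma13g19580, with microtubule motor activity, had 923, 1277 and 1302 normalized counts at stage 2 and 768, 655 and 598 at stage 3 (-0.80 ± 0.15, SE). Glyma09g31271 fell by 0.64 on the log2 scale (SE 0.13).

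Cellulose synthase genes rose in part. Cellulose synthases spin cellulose at the plasma membrane, and 5 of 11 tested genes rose, with 0 down-regulated and a median log2 fold change of 1.67. Glyma06g30860 had 330, 324 and 207 normalized counts at stage 2 and 894, 1136 and 1644 at stage 3 (2.10 ± 0.24, SE; adjusted p = 0.00331, edgeR). Glyma15g16900 (2.17 ± 0.35, SE), Glyma06g06870 (2.09 ± 0.37, SE), Glyma04g23530 (1.74 ± 0.30, SE) and Glyma09g05630 (1.73 ± 0.30, SE) rose with it. Their more abundant relatives moved less. CESA (Glyma12g36570), measured by PCR in the study, had 3648, 3398 and 3206 against 4440, 4398 and 4608 (0.39 ± 0.09, SE; adjusted p = 0.0191, edgeR), which did not overlap between stages but was not called. Glyma13g27250 had a log2 fold change of 0.20 ± 0.10 (SE). Leaving out stage 2 replicate 3 left 1 of the 11 called, and leaving out stage 3 replicate 3 left 3.

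Xyloglucan endotransglucosylase/hydrolases cut and rejoin the glucans that tether cellulose. Of 15 tested, 1 rose and 0 fell (median 0.27). That gene, Glyma13g00280, had 113, 71.8 and 79.4 normalized counts at stage 2 and 701, 270.2 and 195 at stage 3, so its rise (2.15 ± 0.43, SE; adjusted p = 0.00979, edgeR) leaned on stage 3 replicate 1. Glyma15g18360 was seen in stage 3 replicate 1 alone, with 14.8 normalized counts. Of 14 genes with pectinesterase activity, which demethylates pectin, 3 rose and 0 fell. Glyma16g01650 had 1775, 1274 and 987 at stage 2 and 5061, 3604 and 7104 at stage 3 (1.97 ± 0.27, SE), and Glyma17g04940 had 1582, 1082 and 945 against 3568, 3154 and 5615 (1.78 ± 0.24, SE). Glyma17g04960, annotated with carboxylesterase and enzyme inhibitor activity, rose from 21, 13 and 18 to 53, 93 and 53 (1.92 ± 0.30, SE).

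Genes of central carbon metabolism rose in part. In glycolysis, which breaks sugar down to pyruvate, 7 of 20 genes rose and 0 fell (median 0.52). Stage 3 replicate 3 was the highest of stage 3 in 18 of the 20, beside 15224 of all 40917 genes tested. Glyma12g04150 and Glyma11g11870, with carbon-carbon lyase activity, rose alike, by 1.36 ± 0.15 (SE) and 1.35 ± 0.13 (SE). The former had 2398, 2060 and 2119 normalized counts at stage 2 and 4778, 5079 and 7000 at stage 3. Pyruvate kinase makes pyruvate and ATP in the last step. Of its genes, Glyma05g09310 had 6163, 5714 and 5282 against 10403, 10288 and 15260 (1.07 ± 0.17, SE), and Glyma02g28212 rose by 1.30 ± 0.24 (SE). Malate metabolism had 4 of 6 genes up-regulated (median 0.70). The malate dehydrogenase gene Glyma02g00810 held 9589, 8323 and 8175 at stage 2 and 14847, 14912 and 21101 at stage 3 (0.96 ± 0.17, SE).

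In the synthesis of amino acids, the building blocks of storage protein, 6 of 29 genes rose and 0 fell (median 0.32). Glyma12g14420, with ketol-acid reductoisomerase activity in the branched-chain pathway, had 3779, 2828 and 2904 normalized counts at stage 2 and 5726, 5201 and 8542 at stage 3 (1.03 ± 0.19, SE). Glyma05g27290 and Glyma05g03210, annotated to the glutamine family of amino acids, rose by 0.89 ± 0.15 (SE) and 0.80 ± 0.14 (SE). Lipid metabolism had 14 of 110 genes up-regulated and 2 down-regulated (median 0.26). Of 27 tested genes annotated with 3-beta-hydroxy-steroid dehydrogenase activity, 6 rose and 0 fell (median 0.27), and 4 of those that rose are named here. The most abundant of the 4, Glyma11g07490, had 2314, 2040 and 1466 at stage 2 and 5199, 5581 and 13509 at stage 3 (2.06 ± 0.35, SE). Glyma11g07496, Glyma18g00505 and Glyma05g28510 rose by 1.44, 1.91 and 0.88 on the log2 scale. Glyma09g17170, an oxidoreductase annotated to lipid metabolism, rose from 7, 0 and 2 to 22, 42 and 76 (4.09 ± 0.70, SE). The 14 genes annotated with fatty acid biosynthesis held 0 calls by edgeR's quasi-likelihood test, 1 by the DESeq2 Wald test and a median of 0.09.

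Oxidoreductases formed the list with the most members of those examined. Of 294 genes annotated with oxidation reduction, 63 rose and 5 fell (median 0.39). Glyma19g01160, which carries a zinc ion binding term, rose from 64, 56 and 41 normalized counts to 318, 698 and 1164 (3.79 ± 0.44, SE; adjusted p = 0.00331, edgeR). Glyma13g36360, of the oxygenases that use 2-oxoglutarate, rose by 2.84 ± 0.48 (SE). Glyma07g01660 had 68, 27 and 11 against 218, 174 and 272 (2.74 ± 0.47, SE). Genes annotated with the response to oxidative stress had 5 of 14 up-regulated and 0 down-regulated (median 0.62). Those with peroxidase activity had 5 of 17 up-regulated and 0 down-regulated (median 0.71). The peroxidase gene Glyma18g06210 had 342, 400 and 287 at stage 2 and 822, 997 and 1956 at stage 3 (1.88 ± 0.29, SE).

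Of 152 translation genes, 20 rose and 1 fell, with a median log2 fold change of 0.24, a range of -1.24 to 1.42 and positive values in 132. On library totals the median was -0.14, so the direction of this list depended on the scaling. The same held for proteolysis (-0.21 on library totals), lipid metabolism (-0.13), amino acid synthesis (-0.07) and transmembrane transport (-0.22). For oxidation reduction the median was 0.001 on library totals. It stayed positive for glycolysis (0.13) and malate metabolism (0.30). Glyma04g36250, a GTPase of translational elongation, had 798, 764 and 662 normalized counts at stage 2 and 1259, 1252 and 1910 at stage 3 (0.99 ± 0.16, SE). Glyma17g01430, with ligase activity, was the gene that fell, from 344, 345 and 334 to 175, 198 and 161 (-0.93 ± 0.11, SE).

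Among transporters, MRP-N rose. MRP-L and MRP-N are paired ABC transporters of the multidrug resistance-associated type, and loss of both lowers seed phytic acid. MRP-N (Glyma03g32500) had 761, 534 and 509 normalized counts at stage 2 and 1105, 1438 and 1692 at stage 3 (1.23 ± 0.18, SE; adjusted p = 0.00422, edgeR). MRP-L (Glyma19g35230) had 854, 752 and 644 against 884, 1153 and 1297, a log2 fold change of 0.57 ± 0.15 (SE) that was not called (adjusted p = 0.026, edgeR). Stages did not overlap in either gene. Whether the change of the pair differed was not tested. The forward PCR primers of the study cover a short stretch of each gene and do not show how close the copies are elsewhere. They are given for the pair with capitals at the 3 of 20 positions where they differ.
MRP-L: tggtcGagtTgcagagttcA
MRP-N: tggtcTagtCgcagagttcG

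Of 123 genes for transmembrane transport, 9 rose and 2 fell (median 0.16), beside 4.56 % and 2.52 % of all genes tested. Glyma03g30290, with cation transport activity, rose from 60, 25 and 10 normalized counts to 221, 339 and 266 (3.23 ± 0.45, SE). Of 18 genes for oligopeptide transport, 1 rose, a share near that of all genes. It was Glyma04g08770, with 318, 292 and 293 at stage 2 and 541, 647 and 638 at stage 3 (1.02 ± 0.10, SE). In the list of 29 multidrug transporters 1 rose and 1 fell, shares near those of all genes. These were Glyma10g42340 (1.24 ± 0.23, SE) and Glyma04g15306, which went from 201, 213 and 146 normalized counts to 80.2, 117 and 80.01 (adjusted p = 0.00975, edgeR).

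Several lists of the study moved little. Of 56 defense-related genes, 2 rose and 1 fell, again close to the shares of all genes tested (median -0.19). Their rising share lay below that of the annotated genes. Glyma16g32280 rose from 106, 101 and 95 normalized counts to 189, 194 and 204 (0.96 ± 0.12, SE) and its neighbour Glyma16g32290 by 0.82 ± 0.13 (SE), while Glyma16g10080 fell by 0.62 on the log2 scale (SE 0.12). The ADR1-like 1 genes had log2 fold changes of 0.13 ± 0.13 (Glyma17g36420) and -0.30 ± 0.19 (Glyma14g08700). Of 52 transcription factor genes in the families of the study, 0 were called by edgeR's quasi-likelihood test and 4 by the DESeq2 Wald test, with a median of -0.03. All 6 SNF2 genes, for chromatin remodellers, had negative log2 fold changes (median -0.37). Of these, 0 were called by edgeR and 1 by the DESeq2 Wald test.

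Among the wider set of 191 genes annotated with regulation of transcription, 7 rose and 6 fell, close to the 4.56 % and 2.52 % of all genes tested. Here too the rising share lay below that of the annotated genes. Glyma13g22061 had 1014, 537 and 409 normalized counts at stage 2 and 1644, 2260 and 1711 at stage 3 (1.53 ± 0.29, SE). Glyma15g18380, with a zinc ion binding term, rose by 1.46 ± 0.18 (SE) and Glyma07g13423 by 1.29 ± 0.24 (SE). Glyma06g05170 fell from 290.3, 293 and 361 to 164, 124 and 86 (-1.34 ± 0.20, SE; adjusted p = 0.00429, edgeR).

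Genes for raffinose family oligosaccharides, the soluble galactosides that soybean seeds store late in filling, gave 0 calls among 7 tested by edgeR and by the DESeq2 Wald test. Galactinol synthase makes the galactosyl donor. GalS1 (Glyma19g41550) had 368, 106 and 90 normalized counts at stage 2 and 478, 164 and 66 at stage 3, an overlap in which replicate 1 was the highest at both stages (0.36 ± 0.68, SE). The other galactinol synthase genes held at most 25.3 normalized counts in any library. RS2 (Glyma06g18890), a raffinose synthase, had 245, 178 and 213 against 348, 325 and 248 (0.54 ± 0.16, SE; adjusted p = 0.0382, edgeR). StaSyn1 (Glyma19g40550), a stachyose synthase, had a log2 fold change of 0.31 ± 0.15 (SE). SugT1 (Glyma08g06420), a sugar transporter, had 873, 547 and 543 at stage 2 and 1292, 562 and 560 at stage 3 (0.30 ± 0.32, SE), with replicate 1 the highest at each stage. UBQ10 (Glyma07g32020), the reference gene of the study's PCR, had 2028, 1928 and 2222 against 2585, 2458 and 2809, a log2 fold change of 0.35 ± 0.10 (SE; adjusted p = 0.0316, edgeR).

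Most DEGs had no annotation in these sources, which covered 417 of 2895. Glyma13g23980 showed the largest rise of those, from 44, 5 and 0 normalized counts to 423, 1551 and 1258 (6.30 ± 0.80, SE). Glyma15g38091 had the smallest p of the rising ones and went from 21, 28 and 14 to 228, 264 and 405 (3.87 ± 0.29, SE). Glyma02g45850 fell from 10, 16 and 59 raw counts to 1, 0 and 0 (adjusted p = 0.00579, edgeR). Glyma01g39120 had the smallest p of the falling ones, with 674, 626 and 589 against 335, 310 and 315 (-0.98 ± 0.09, SE).

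The step was set against the other stages of 3MWT in CPM, counts scaled to a common library size over its 15 libraries. The neighbouring steps share the libraries of stage 2 or stage 3, so their values are given as levels only. Glyma10g39150, of the nutrient reservoir list, went through mean levels of 92.4, 3953, 28786, 42557 and 59288 CPM at stages 1 to 5, with SDs of 56.4, 3850, 8524, 3797 and 5928 (n = 3 each). The spread relative to the mean was thus widest at stage 2. Glyma16g28030 (LHCB1) was at 1.30, 7.48, 27.7, 35.5 and 40.3 CPM. Glyma06g30860, a cellulose synthase gene, was at 5.80, 11.9, 50.8, 212 and 332 CPM. Glyma09g16392, of the nucleosome assembly list, declined from 12.8 CPM through 8.01, 2.34 and 0.636 to 0.108 CPM. MRP-N was lowest at stage 2, with 33.6 ± 9.77 (SD), 25.0 ± 5.78, 58.6 ± 12.2, 101 ± 4.30 and 127 ± 10.6 CPM over the 5 stages, and MRP-L likewise, with 44.2 ± 10.1, 31.2 ± 4.34, 46.1 ± 8.71, 90.5 ± 8.18 and 119 ± 19.5 CPM. For MRP-N the means of stages 1 and 2 differed by less than the SD of stage 1.

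**Figure D4:**
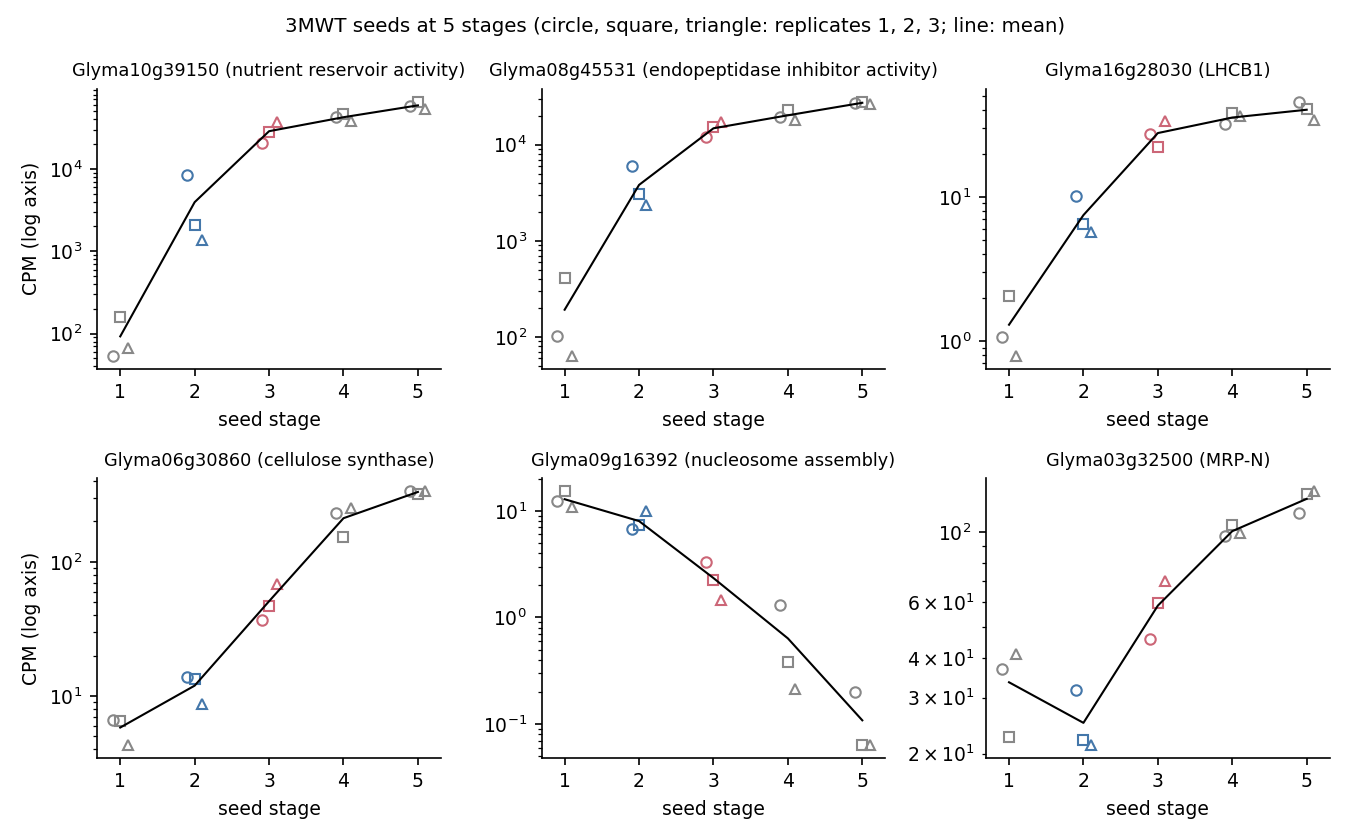
Levels in CPM (log axis) of 6 genes in the 15 libraries of 3MWT at seed stages 1 to 5, with a symbol per replicate, blue for stage 2, red for stage 3 and a line through the means. The circle of stage 2 (replicate 1) lies above its partners for Glyma10g39150, Glyma08g45531, Glyma16g28030 and MRP-N.

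The same step in 3mlpa asked whether seeds of the mutant line grew through it in the same manner. The study describes the background of the lines as non-isogenic. A difference between lines therefore cannot be assigned to the mutant alleles. Libraries of 3mlpa are separate from those of 3MWT but shared their lanes. In 3mlpa 522 of 42181 genes were called, 293 up-regulated (0.695 %) and 229 down-regulated (0.543 %). Of these, 317 were also called in 3MWT, which is 60.7 % of the 3mlpa calls and 10.9 % of the 3MWT calls, and the direction was the same in 317 of 317. When the difference of the step between lines was tested in 12 libraries, 0 of 43649 genes were called by edgeR's quasi-likelihood test (smallest adjusted p = 0.0563), 4836 had an unadjusted p under 0.05, and the DESeq2 Wald test called 128. Without 3mlpa stage 3 replicate 1, edgeR called 14. A call in 3MWT that 3mlpa did not share is thus not shown to differ between lines.

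By list, the medians in 3mlpa were 4.45 for nutrient reservoir genes (13 tested, 1 called), 2.18 for endopeptidase inhibitors (1 called), 0.54 for photosystem genes (2 called), 1.05 for cellulose synthases (3 called) and -0.62 for nucleosome assembly (0 called). In 3MWT they were 3.50, 1.92, 0.82, 1.67 and -0.56. The study listed the photosystem genes mostly for lower expression in 3mlpa at later stages, stage 3 among them. It listed the cellulose synthase genes mostly for higher expression in 3mlpa at earlier stages, stage 2 among them. That choice favours larger medians in 3MWT, so these differences are not evidence that the step differs between lines. Nutrient reservoir genes took 0.107 to 0.347 % of the gene counts at stage 2 of 3mlpa and 1.58 to 6.44 % at stage 3. The ranges of the lines overlap at stage 2 and at stage 3. The annotated genes with the smallest interaction p did not pass the threshold either. Glyma15g17661, annotated to the nucleus, fell by 1.16 on the log2 scale in 3MWT (SE 0.11; 257, 254 and 267 against 117, 124 and 107 normalized counts), and had a log2 fold change of -0.06 in 3mlpa, with an interaction of -1.10 and an adjusted p of 0.101 (edgeR). Glyma06g12740, annotated as a membrane protein, rose by 1.25 ± 0.14 (SE) in 3MWT and had 0.05 in 3mlpa (interaction 1.20 on the log2 scale, adjusted p = 0.13, edgeR). Glyma13g41650 had 0.21 in 3MWT and -1.03 in 3mlpa (interaction 1.24, adjusted p = 0.105, edgeR).

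**Figure D5:**
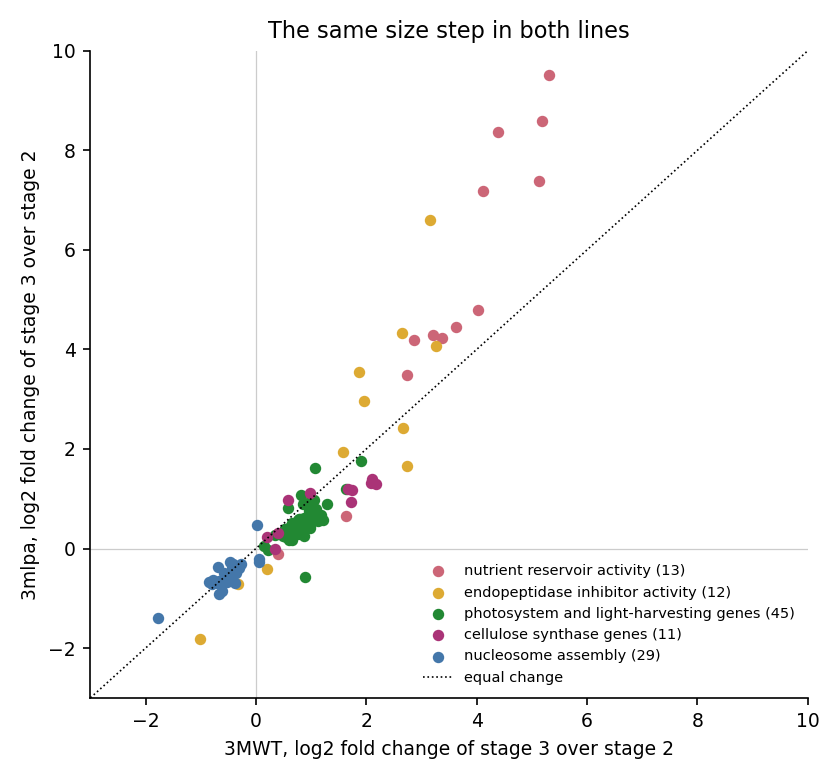
Log2 fold change of stage 3 over stage 2 in 3mlpa (vertical axis) against that in 3MWT (horizontal axis) for the members of 5 lists tested in both lines, a point per gene, with a dotted line at equal change. Nutrient reservoir genes of large change lie above the line, and most photosystem genes lie below it. The study picked the photosystem genes mostly for lower expression in 3mlpa, partly on these libraries, which favours that side. The interaction test called 0 genes.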

How the data were processed

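Whole 3MWT seeds at stages 2 and 3 were compared, 3 libraries each, with the same stages of 3mlpa as a second line. The authors made TruSeq libraries, aligned single-end reads to the Williams 82 genome (Glyma.Wm82.a1.0, annotation v1.1) with TopHat 2.0.8 and deposited raw counts per gene from HTSeq-count in Union mode (version not given in the sources used here), without normalization. Summary lines for reads not counted on a gene were left out of library sizes and tests. The authors' normalized abundances and their DESeq tables of line differences were not used. From their GO output only the pairing of genes with terms was used.

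Counts were tested with edgeR 4.0.16 in R 4.3.3 (TMM, quasi-likelihood test) on genes with at least 10 counts over the libraries of the fit. A gene was a DEG at 1 % FDR, an adjusted p (Benjamini-Hochberg) of 0.01 or less. SEs were obtained by dividing the log2 fold change by the square root of F, and normalized counts are counts over the effective library size, times its mean. An exact permutation test of 3 against 3 cannot give a p under 0.1. p-values measure the spread between seed pools. The lists, and the rule for genes named, were chosen with earlier results of these data known. The rule takes genes the study names singly, up to 4 per list or term with the largest change among those called, not overlapping and with a mean of at least 20 normalized counts, at most 4 unannotated genes, the annotated ones among the most abundant genes, and those with the smallest interaction p. Other members of the main lists named for contrast were chosen after their values were seen.

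Alternatives were DESeq2 1.42.0 size factors, its Wald test, the edgeR exact test, other filters, a fit over 15 libraries, a replicate block, a 2-fold threshold and leaving out each library. Library totals, and leaving out libraries under the Wald test or the 15-library fit, were added after seeing the data. Tested on simulated data of 40530 genes, the quasi-likelihood test recovered 55 of 100 genes changed 2-fold and 92 of 100 changed 4-fold, with 9 false calls. None of the identifiers (0 of 54175) was found in the table of locus names.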

Additional observations from a re-analysis of the deposited data

Results flagged for a closer look

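Alignments to several places, which are outside the gene counts and which no comparison used, numbered at least 0.930 for each counted read in the 3MWT libraries of stage 2. The 3mlpa libraries of stages 2 and 3 had at most 0.272. The part of these alignments in the results was not tested.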

How the results depend on the processing

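The number of DEGs (2895) was 5314 with the DESeq2 Wald test, 6167 with the edgeR exact test, 8632 on library totals and 1 with a 2-fold threshold. The replicate numbers do not pair the libraries, since deviations of same-numbered libraries from their stage means correlated by -0.002, 0.01 and -0.03, and the replicate block left 2 DEGs, 0 calls in each list below and 0 for the interaction. Leaving out libraries gave 0 to 5601 DEGs over 3 fits, and with the quasi-likelihood test alone 3777 without stage 2 replicate 1, 540 without stage 2 replicate 3, and 922 and 645 without stage 3 replicates 1 and 3. Photosystem genes that rose (32) numbered 16 in the fit over 15 libraries, 12 on library totals, 0 with a 2-fold threshold and 0 to 40 with a library left out. Nutrient reservoir genes that rose (5) numbered 12 (Wald test), 13 (exact test), 11 (no filter), 10 (15 libraries), 10 (library totals), 0 (2-fold) and 0 to 13 (library left out). Nucleosome assembly genes that fell (11) numbered 21, 19, 5 (15 libraries), 26 (library totals), 0 (2-fold) and 0 to 25. Cellulose synthase genes that rose (5) numbered 9, 8, 0 (2-fold) and 0 to 7. The interaction (0) gave 128 with the Wald test and 0 to 14 with a library left out. The 88 called among 111 named genes kept their sign under all settings. Stages did not overlap in any of the 2895 DEGs, so leaving out a library could scarcely turn a sign. Those fits are therefore not evidence for the direction. On library totals StaSyn1 (Glyma19g40550) had a log2 fold change of -0.061, SugT1 (Glyma08g06420) -0.047, UBQ10 (Glyma07g32020) -0.040, Glyma17g36420 -0.25, Glyma03g38080 -0.12 and Glyma13g41650 -0.18. With a library left out GalS1 (Glyma19g41550) ranged from -0.70 to 1.28, SugT1 from -0.22 to 0.57, Glyma03g38080 from -0.16 to 0.47 and Glyma10g28610 from -0.39 to 0.32. The cause was not tested.

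With 3 libraries per stage, a spread as wide as that of the storage genes at stage 2 left a mean difference of 39.5-fold (Glyma13g18450) uncalled, and low counts limit genes such as the minor galactinol synthases. Stage and lane cannot be told apart.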

Other observations

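GO terms beyond the lists above were scanned after the values were seen, so the following are descriptions. These terms can share genes with those lists, so they are not separate results. Genes with pyridoxal phosphate binding, the vitamin B6 cofactor of aminotransferases, had 9 of 20 up-regulated and 0 down-regulated (median log2 fold change 0.36). Genes with calcium ion binding had 7 of 18 up-regulated (median 0.67), and those of proton transport 5 of 14 (median 0.48). The oxygen evolving complex, the water-splitting part of photosystem II, had 7 of 12 up-regulated. Whether the calcium ion binding genes are among these, or in the photosystem list, was not counted. Genes for the initiation of transcription had 4 of 12 down-regulated and 0 up-regulated (median -0.42), beside 2.52 % of all genes. The overlap of this term with the nucleosome assembly list was not counted. Its falling genes may thus be histone-type genes reported above.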
